A study of Homo sapiens with 12 samples.

Results

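Amino acid transporters of the plasma membrane were followed in HCT116, a line from a colon cancer, and PANC1, one from a pancreatic adenocarcinoma, treated with inhibitors of histone acetyltransferase coactivators. The 10 genes were chosen by name, as rows of the deposited table of 34687 gene rows called SLC7A11, SLC7A5, SLC3A2, SLC7A1, SLC1A4, SLC1A5, SLC38A1, SLC38A2, SLC6A9 and SLC43A1, and each had 1 row. The choice was made with earlier results of these data known. The arrays were Illumina HumanHT-12 BeadChips, where the brightness of labelled RNA bound to beads is read as a signal. Cells of each line were given 0.05% DMSO, which is the solvent and served as the control, or a drug at 10 uM (either ICG-001 or C646), and were collected after 12 or 96 h. ICG-001 blocks the interaction of CBP with β-catenin, and C646 inhibits the acetyltransferase activity of CBP and the related p300. This gave 12 groups, 6 per cell line. Cells collected at 12 h had been grown to a higher confluency before the drug was added, whereas those collected at 96 h started sparser, were passaged during the treatment and received new medium and drug every 24 h. Time in the drug, cell density and passage therefore cannot be told apart. No group carried a genetic change beyond those of the cell line itself, and each tumor type was represented by 1 line.

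Amino acids cross the plasma membrane through carriers of several families. SLC3A2 is the heavy chain shared by heterodimeric carriers: joined to SLC7A5 it imports leucine and other large neutral amino acids, and joined to SLC7A11 it imports cystine in exchange for glutamate, which feeds glutathione synthesis. SLC7A1 imports arginine and lysine, SLC1A5 exchanges glutamine and other neutral amino acids, SLC1A4 carries alanine, serine and cysteine, SLC38A1 and SLC38A2 take up glutamine and alanine with sodium, SLC6A9 takes up glycine and SLC43A1 carries large neutral amino acids without sodium. Cells short of amino acids switch on several of these genes through the transcription factor ATF4, and colon and pancreatic carcinomas often carry more SLC7A5 than the tissue they arise from.

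Stretches upstream of 4 of these genes are printed, because SLC7A5, SLC3A2 and SLC7A1 were the members that rose with ICG-001 in both lines at both times, and SLC1A5 held the only match to the ATF4 type of element. Each is read 5′ to 3′ on the strand of the gene from the RefSeq promoter table (GRCh38.p14). Capitals mark a match to 1 of 3 motifs searched on both strands of the 250 bases before each start: TGATGNAA, the core of the element bound by ATF4 and C/EBP proteins, CACGTG, an E-box, and TGACNNNGC, the core of the antioxidant response element. No match overlapped another. SLC7A5 lies on chromosome 16 (chr16:87869508-87869757, minus strand), and the E-box runs from 130 to 125 bases before its start.
SLC7A5: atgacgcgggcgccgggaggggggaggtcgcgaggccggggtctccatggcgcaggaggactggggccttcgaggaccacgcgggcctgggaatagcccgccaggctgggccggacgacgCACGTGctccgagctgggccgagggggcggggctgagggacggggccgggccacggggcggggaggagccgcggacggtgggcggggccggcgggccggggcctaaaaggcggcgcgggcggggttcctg
SLC7A1 lies on chromosome 13 (chr13:29595689-29595938, minus strand), and the antioxidant core runs from 85 to 77 bases before its start.
SLC7A1: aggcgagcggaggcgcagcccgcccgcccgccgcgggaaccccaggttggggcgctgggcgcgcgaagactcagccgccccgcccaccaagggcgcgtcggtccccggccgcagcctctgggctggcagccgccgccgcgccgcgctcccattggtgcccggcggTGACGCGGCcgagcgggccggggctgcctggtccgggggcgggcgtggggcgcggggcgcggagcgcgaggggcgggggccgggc
SLC3A2 lies on chromosome 11 (chr11:62881651-62881680, plus strand), and the antioxidant core runs from 37 to 29 bases before 1 of its 3 listed starts.
SLC3A2: acgagggtgggTGACTCAGCgtcctccttc
SLC1A5 lies on chromosome 19 and has 3 listed starts. The E-box (chr19:46787326-46787355, minus strand) and the antioxidant core, which reads TGACNNNGC on the other strand (chr19:46787386-46787415), lie before 1 start, and the TGATGNAA match (chr19:46784893-46784922) lies 97 to 90 bases before another.
SLC1A5 E-box: ggcgggagtggtCACGTGgacaggacgggg
SLC1A5 antioxidant core: tcctggatcttGCGAGGTCAgctcccgctc
SLC1A5 TGATGNAA: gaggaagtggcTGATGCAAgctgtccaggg

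The table gave 16 windows for 9 of the 10 genes and none for SLC7A11. TGATGNAA was found in 1 of the 16 windows and in 3.14% of the 35116 windows of the whole table, CACGTG in 3 of 16 and 6.34%, and TGACNNNGC in 3 of 16 and 10.9%. The third E-box window belonged to SLC43A1. These matches describe letters and were not tested as binding sites.

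The authors had averaged 2 arrays into each column, and 3 for PANC1 ICG-001 12 h, so a group had 1 value per gene. These averaged values allowed no replicate check and carried no error, and all differences are sizes measured between columns. The paper states that replicates were correlated with each other and that differential P values came from Illumina's error model. Those results were not used here. The median signal was 139.05 to 139.64 in HCT116 and 132.7 to 133.5 in PANC1. The detection limit, set above the bulk of dim rows, was 143.8 to 144.4 for HCT116 columns and 135.4 to 138.1 for PANC1 columns. Rows under the limit in both columns of a comparison scattered around equality with an SD of 0.062 to 0.073 on the log2 scale, and the median of all rows above the limit stayed between -0.01 and 0.01. A gene is said to have risen or fallen where its columns differed at least 1.5-fold and 1 or both of them exceeded the limit. The lines appeared to have been normalized apart, so levels were compared within a line and lines were compared through ratios. HCT116 showed the epithelial EPCAM at 6553 to 9562 and low vimentin (VIM, 257 to 335), whereas PANC1 showed VIM at 14637 to 18144 together with keratin 19 (KRT19, 5006 to 11748). Of 7 colon markers, 3 were above the limit in HCT116, and CDH17, LGALS4, VIL1 and CDX1 were not. A PANC1 column held 4 or 5 of these 7 above its limit, so the colon list did not set HCT116 apart. Of 5 pancreatic duct and PANC1 markers, all were above the limit in every PANC1 column and 4 or 5 were in an HCT116 column, where KRT7 was under it in both DMSO columns. Markers of fibroblasts (1 of 4 in HCT116, 2 of 4 in PANC1) and leukocytes (1 of 4 in each) were mostly under it.

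SLC3A2, the shared heavy chain, rose with ICG-001 in both lines at both times. In HCT116 its signal at 12 h was 898 in DMSO, 3296 in ICG-001 and 1042 in C646, and at 96 h it was 568, 2294 and 664 in the same order. In PANC1 it was 544, 1249 and 650.2 at 12 h and 812, 1536 and 745 at 96 h. The ICG-001 column was the highest at each time in each line, and the C646 column lay close to DMSO. As measurements of whole cultures, these signals cannot tell a change in RNA per cell from a change in the number of cells that express a gene. The ratio of ICG-001 to DMSO was 3.67 and 4.04 for HCT116 and 2.30 and 1.89 for PANC1, at 12 and 96 h, whereas C646 over DMSO ranged from 0.918 to 1.196.

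SLC7A5, the leucine carrier that pairs with SLC3A2, had its highest signals in ICG-001 as well, and differed from its partner in C646. The HCT116 signals at 12 h were 4137 in DMSO, 13802 in ICG-001 and 6170.5 in C646, and those at 96 h were 2329.8, 12886 and 4070.2. PANC1 gave 1702, 5225 and 4118 at 12 h and 3454, 6239 and 4732 at 96 h. DMSO was the lowest and ICG-001 the highest column at each time in both lines, with C646 in between. With ICG-001 it was 3.34-fold and 5.53-fold higher than DMSO in HCT116 and 3.07-fold and 1.81-fold higher in PANC1. With C646 it passed the 1.5-fold threshold in HCT116 at 96 h (1.75-fold) and in PANC1 at 12 h (2.42-fold), and was at 1.49-fold and 1.37-fold in HCT116 at 12 h and PANC1 at 96 h. Both C646 calls were lost against the DMSO column of the other time, where the ratios were 0.984 in HCT116 at 96 h and 1.19 in PANC1 at 12 h. The same exchange raised the other C646 ratios past the threshold, to 2.65 in HCT116 at 12 h and 2.78 in PANC1 at 96 h. An exchanged DMSO column also differs in time, cell density and passage. No other member passed the threshold with C646 against the DMSO column of the same time.

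SLC7A11, the cystine carrier and the other partner of SLC3A2, was dim, with 9 of 12 columns above the limit. Its signals in HCT116 were 147, 214 and 149 at 12 h and 126, 175 and 133 at 96 h for DMSO, ICG-001 and C646, and in PANC1 they were 125, 210.3 and 138 at 12 h and 152, 188 and 151 at 96 h. ICG-001 was highest each time, and HCT116 DMSO and C646 at 96 h and PANC1 DMSO at 12 h were not above the limit. Only PANC1 at 12 h passed the threshold, where SLC7A11 was at least 1.53-fold higher with ICG-001. In HCT116 it was 1.46-fold higher at 12 h and at least 1.21-fold higher at 96 h, and in PANC1 at 96 h the ratio was 1.23. Background is left in these signals and pulls ratios of dim genes toward 1. After a normexp background correction the ratios were 2.32 in HCT116 at 12 h and 1.58 in PANC1 at 96 h, and all 4 passed the threshold, 2 of them against a DMSO column under the limit.

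SLC7A1, the arginine and lysine carrier, rose with ICG-001 in both lines at both times as well. At 12 h in HCT116 it read 1331 in DMSO, 3297 in ICG-001 and 1406 in C646, and at 96 h 1053, 3038 and 1371. The PANC1 readings were 840.5, 1883 and 1143 at 12 h and 1349, 2748 and 1477 at 96 h. Each ICG-001 column exceeded every DMSO and C646 column of the same line. The increase with ICG-001 over DMSO was 2.48-fold and 2.89-fold for HCT116 and 2.24-fold and 2.04-fold for PANC1, a narrower range than for SLC7A5. C646 over DMSO stayed between 1.06 and 1.36.

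**Figure D1:**
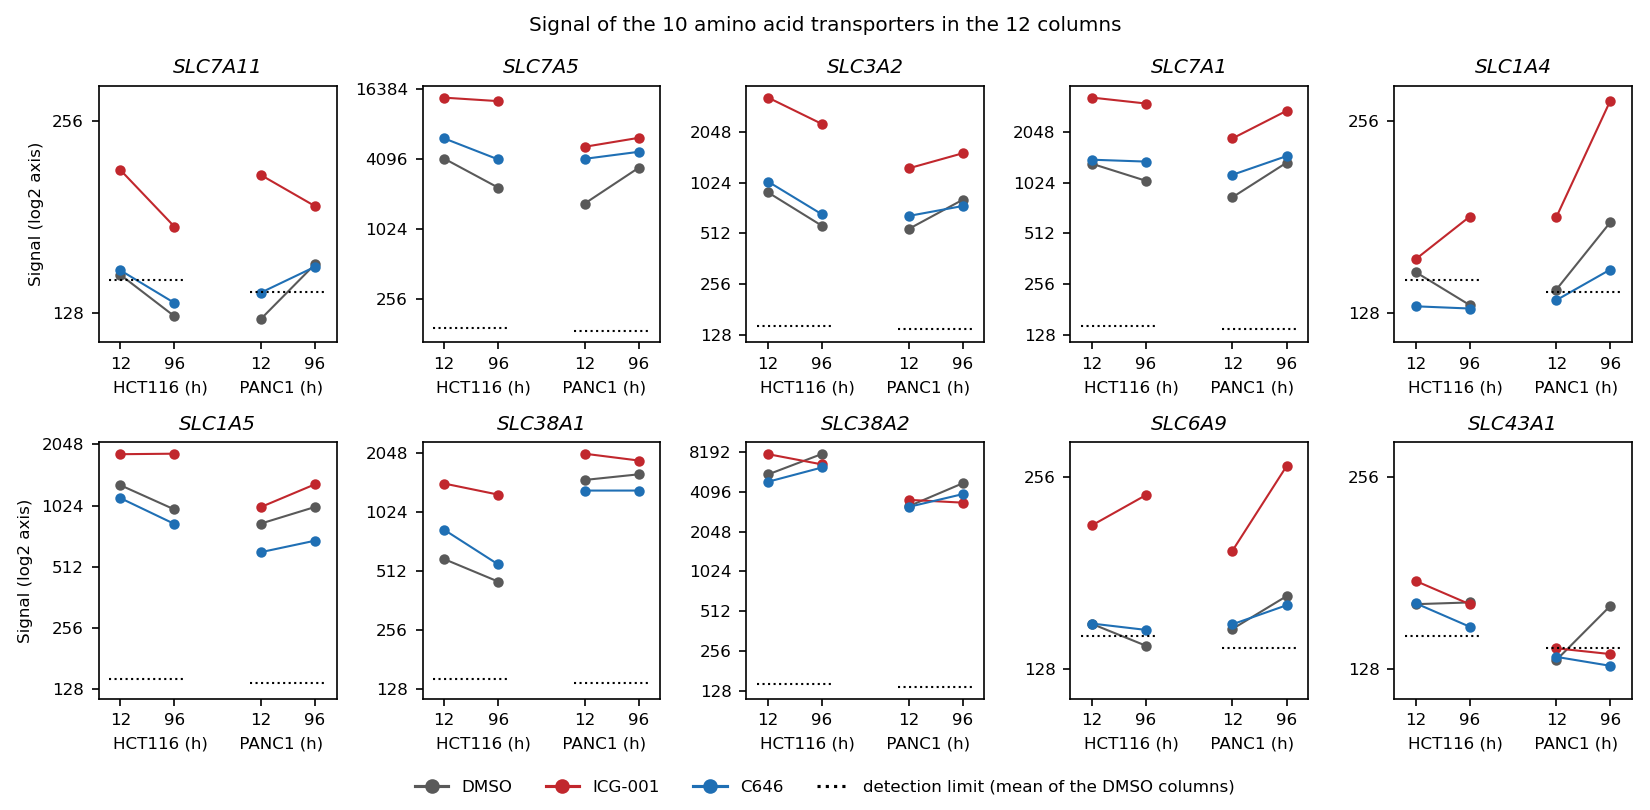
Signal of each transporter gene (vertical axes, log2 scale, 1 panel per gene with its own range) at 12 and 96 h in HCT116 and PANC1. Points are single columns, each the authors' mean of 2 or 3 arrays, lines join the times of a treatment, and dotted lines show the detection limit. ICG-001 (red) was the highest column in every line and time for SLC7A11, SLC7A5, SLC3A2, SLC7A1, SLC1A4, SLC1A5, SLC38A1 and SLC6A9, whereas SLC38A2 and SLC43A1 showed no such order.

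SLC1A5, the glutamine exchanger, had ratios to DMSO on opposite sides of 1 for the drugs. In HCT116 it gave 1289.5, 1831 and 1114 at 12 h and 979.5, 1841 and 831 at 96 h in DMSO, ICG-001 and C646. In PANC1 the same columns read 834, 1006 and 604 at 12 h and 1007, 1301 and 687 at 96 h. The order was C646 below DMSO below ICG-001 in both lines and at both times. Only HCT116 at 96 h passed the threshold against DMSO, at 1.88-fold with ICG-001, and the other ICG-001 ratios were 1.42, 1.21 and 1.29. That call was lost against the HCT116 DMSO column at 12 h, with a ratio of 1.43. C646 over DMSO was 0.683 to 0.864, under the threshold in each comparison. After normexp the C646 ratio of SLC1A5 in PANC1 at 96 h was 0.645, which passed the threshold as lower. SLC1A4, its relative for alanine, serine and cysteine, was dim, with 8 of 12 columns above the limit. It read 148, 155 and 131 at 12 h and 132, 181 and 129.9 at 96 h in HCT116, and 139, 181 and 134 at 12 h and 177, 275 and 149.6 at 96 h in PANC1. It rose with ICG-001 in PANC1 at 96 h (1.55-fold), was at least 1.26-fold higher in HCT116 at 96 h, and stood at ratios of 1.05 and 1.30 in HCT116 and PANC1 at 12 h. After normexp its 4 ICG-001 ratios ran from 1.13 to 2.38, the highest against a DMSO column under the limit, and 3 passed the threshold. With C646 in HCT116 at 12 h the normexp ratio of SLC1A4 was 0.662, past the threshold as lower, and that C646 column was under the limit.

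SLC38A1 and SLC38A2 take up glutamine and alanine by the same mechanism, and their signals did not move together. SLC38A1 in HCT116 read 589, 1428 and 831 at 12 h and 453, 1254 and 553 at 96 h in DMSO, ICG-001 and C646. In PANC1 it read 1489, 2024 and 1315 at 12 h and 1590.5, 1869 and 1315 at 96 h. The gene rose 2.42-fold and 2.77-fold with ICG-001 in HCT116, and its PANC1 ratios of 1.36 and 1.18 stayed under the threshold. C646 over DMSO was 1.41 and 1.22 for HCT116 and 0.883 and 0.827 for PANC1. The difference between the lines was not tested.

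SLC38A2 read 5525, 7861 and 4866 at 12 h and 7895, 6576 and 6239 at 96 h in HCT116, and 3177, 3554 and 3142 at 12 h and 4737, 3386 and 3925 at 96 h in PANC1. At 12 h ICG-001 was its highest column and at 96 h DMSO was, in both lines. The ratio of ICG-001 to DMSO was 1.42 and 1.12 at 12 h and 0.833 and 0.715 at 96 h, in HCT116 and PANC1, and no comparison of SLC38A2 with DMSO passed the threshold. Against the DMSO column of the other time this order turned, with 0.996 and 0.75 for the 12 h columns and 1.19 and 1.07 for the 96 h columns.

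SLC6A9, the glycine carrier, was dim in DMSO and C646, where 1 of 8 columns was not above the limit, and brighter in all 4 ICG-001 columns. In HCT116 it read 151, 215 and 151 at 12 h and 139, 239.7 and 147 at 96 h, and in PANC1 148, 196 and 150.4 at 12 h and 166, 266 and 161 at 96 h, for DMSO, ICG-001 and C646. It rose with ICG-001 at 96 h, at least 1.66-fold in HCT116 and 1.60-fold in PANC1, and the 12 h ratios were 1.43 and 1.33. After normexp all 4 lay between 1.81 and 3.27, the highest against a DMSO column under the limit. SLC43A1 read 162, 176 and 162 at 12 h and 163, 162 and 149 at 96 h in HCT116. In PANC1 it read 132, 138 and 134 at 12 h and 161, 135 and 129 at 96 h, and only the ICG-001 12 h and DMSO 96 h columns were above the limit. None of its ratios to DMSO passed the threshold, with a range of 0.916 to 1.09 in HCT116, and in PANC1 at 96 h DMSO was at least 1.18-fold higher than either drug. After normexp it passed the threshold as lower in PANC1 at 96 h, at 0.633 with ICG-001 and 0.556 with C646, and both drug columns there were under the limit.

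With ICG-001, 19 of the 40 ratios of a member to DMSO, 10 genes in 4 comparisons, were at least 1.5-fold higher, none was 1.5-fold lower, and 36 were above 1. In HCT116 at 12 h, 4 of the 10 members rose (SLC7A5, SLC3A2, SLC7A1 and SLC38A1), beside 4.88% of all rows above the limit that rose and 4.21% that fell. At 96 h the number was 6, with SLC1A5 and SLC6A9 added, beside 5.2% and 5.17% of all rows. In PANC1 at 12 h, 4 members rose (SLC7A11, SLC7A5, SLC3A2 and SLC7A1) beside 2.2% of all rows, while 0.339% fell. At 96 h, 5 members rose (SLC7A5, SLC3A2, SLC7A1, SLC1A4 and SLC6A9), beside 3.89% of all rows that rose and 3.6% that fell. The median log2 ratio of the members was 0.53 and 0.85 for HCT116 and 0.43 and 0.50 for PANC1, against 0.00 to 0.01 for all rows. Since the members were chosen with earlier results known, these counts and medians only describe this set.

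The PANC1 12 h and HCT116 96 h comparisons leaned on low control columns. For SLC7A5, SLC3A2, SLC7A1 and SLC7A11 these DMSO columns were the lowest of the 6 in their line. Set against the HCT116 DMSO column at 12 h, the ICG-001 96 h column was 3.12-fold higher for SLC7A5, 2.55-fold for SLC3A2 and 2.28-fold for SLC7A1, and the ratio for SLC7A11 was 1.19. Set against the PANC1 DMSO column at 96 h instead, the ICG-001 12 h column was 1.51-fold higher for SLC7A5 and 1.54-fold higher for SLC3A2, and its ratios for SLC7A1 and SLC7A11 were 1.40 and 1.38.

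With C646, 2 of 37 member ratios to DMSO above the limit were at least 1.5-fold higher, none was 1.5-fold lower, and 19 were above 1. None of the 10 members changed in HCT116 at 12 h, where 2.63% of all rows rose and 1.55% fell. SLC7A5 was the only member of 8 to rise in HCT116 at 96 h (1.92% of all rows rose and 1.24% fell) and the only one of 9 in PANC1 at 12 h (4.04% rose and 2.73% fell). None of 10 changed in PANC1 at 96 h, beside 2.84% and 1.2% of all rows. The median log2 ratio of the members was 0.01 and 0.15 for HCT116 and 0.02 and -0.18 for PANC1, at 12 and 96 h. Both drugs were set against the same DMSO columns, so their ratios to DMSO are not independent.

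**Figure D2:**
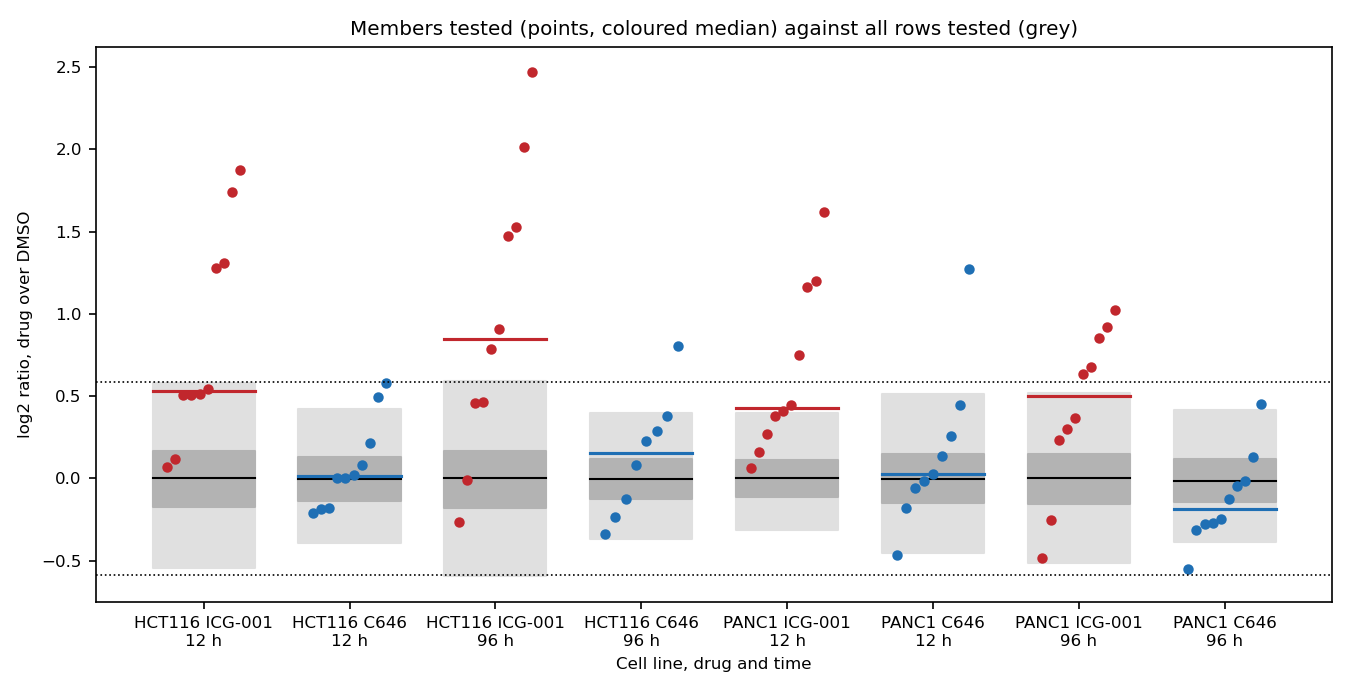
Log2 ratio of drug to DMSO (vertical axis) for the members above the detection limit (points, red for ICG-001 and blue for C646), with their median as a coloured line. Grey boxes span the middle of all rows above the limit, the 5th to 95th percentile in light grey and the quartiles in dark grey, black lines are their medians, and dotted lines mark 1.5-fold. The members' median was 0.43 to 0.85 with ICG-001 and -0.18 to 0.15 with C646.

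The direct ratio of ICG-001 to C646 at the same dose and time does not use the DMSO columns. It was above 1 for 38 of 39 member ratios, with SLC38A2 in PANC1 at 96 h as the exception (0.863), and 22 passed the threshold, all with ICG-001 higher. In HCT116 at 12 h, 6 of 10 members passed it (SLC7A5, SLC3A2, SLC7A1, SLC1A5, SLC38A1 and SLC38A2), beside 3.49% of all rows higher in ICG-001 and 2.85% lower. At 96 h 6 passed, with SLC6A9 in place of SLC38A2, beside 3.26% and 3.31%. In PANC1 5 of 10 passed at 12 h (SLC7A11, SLC3A2, SLC7A1, SLC1A5 and SLC38A1), beside 1.59% and 0.936%, and 5 of 9 at 96 h (SLC3A2, SLC7A1, SLC1A4, SLC1A5 and SLC6A9), beside 3.36% and 3.51%. The median log2 ratio was 0.70 and 0.92 for HCT116 and 0.52 and 0.72 for PANC1.

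The heavy chain SLC3A2 was higher in ICG-001 than in C646 by 3.16-fold and 3.45-fold for HCT116 and 1.92-fold and 2.06-fold for PANC1, at 12 and 96 h. SLC7A1 (1.65-fold to 2.34-fold) and SLC1A5 (1.64-fold to 2.22-fold) also passed the threshold in all 4 comparisons. The leucine carrier SLC7A5 was 2.24-fold and 3.17-fold higher in HCT116, but its ratios in PANC1, 1.27 and 1.32, stayed under the threshold. With 1 column per group, none of these differences has an interval.

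**Figure D3:**
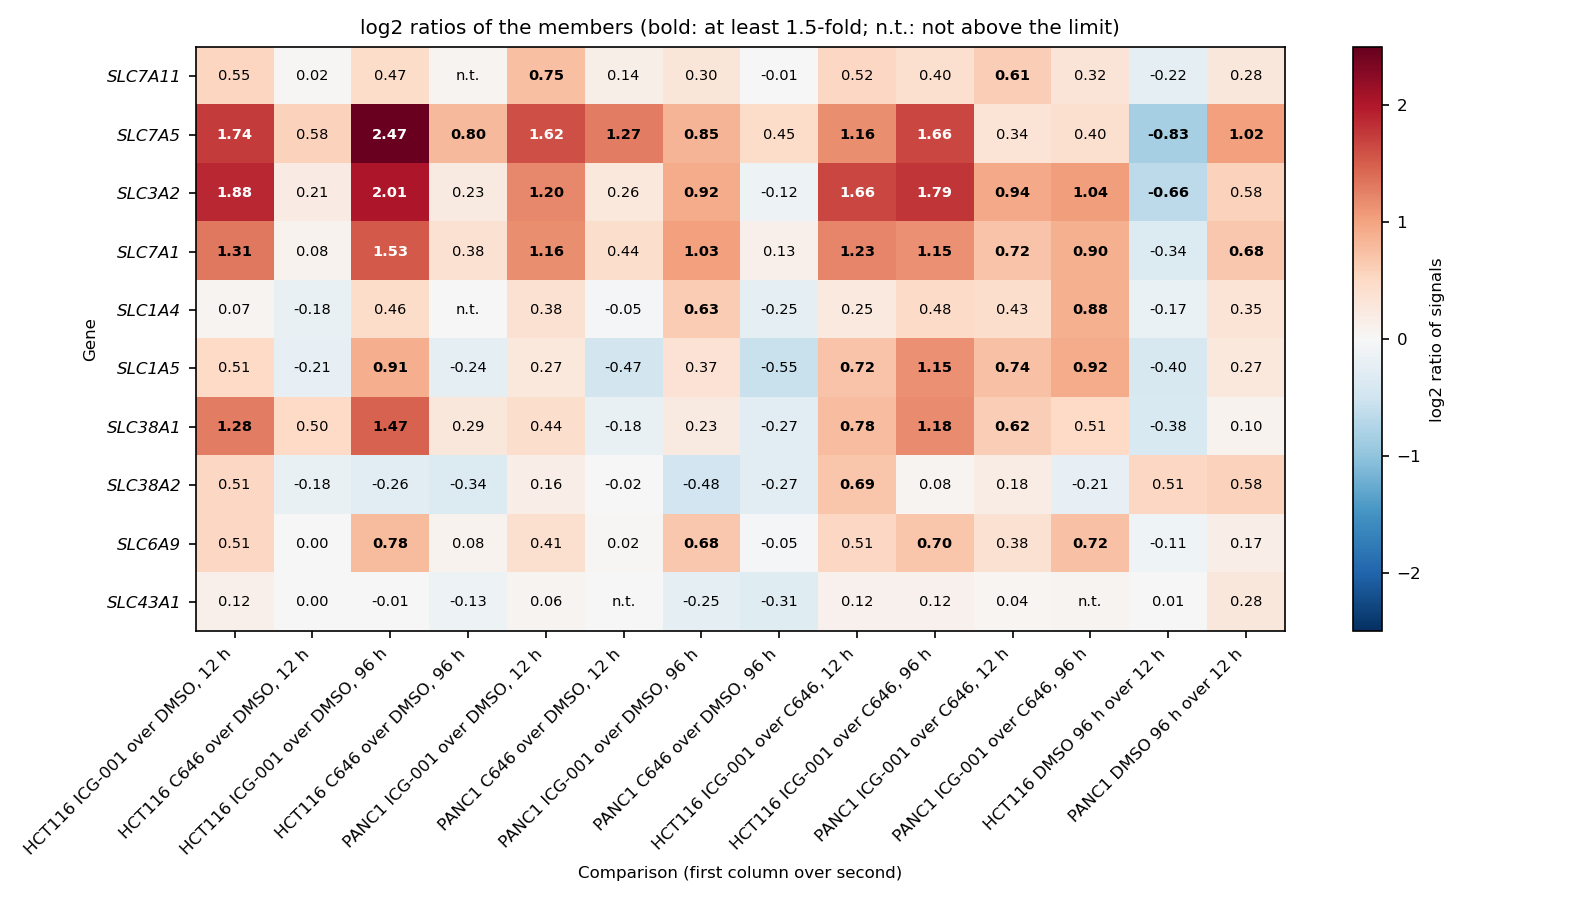
Log2 ratios of the 10 transporters (rows) in the 14 comparisons (columns), coloured from blue (lower in the first column named) to red (higher). Bold values are at least 1.5-fold, and n.t. marks a gene under the limit in both columns. SLC7A5, SLC3A2 and SLC7A1 are bold in every ICG-001 over DMSO comparison, and of the C646 over DMSO comparisons only SLC7A5 has bold values. Ratios with 1 column under the limit are drawn as measured.

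In the DMSO columns alone, the members moved in opposite directions between the times in the 2 lines. In HCT116, SLC7A5 (fell by 0.83 on the log2 scale) and SLC3A2 (fell by 0.66) were lower at 96 h than at 12 h, 8 of the 10 members had a ratio under 1 and the median log2 ratio was -0.28. Of all rows, 1.57% were 1.5-fold higher and 1.58% lower. In PANC1, SLC7A5 (2.03-fold) and SLC7A1 (1.61-fold) were higher at 96 h, all 10 members had a ratio above 1 and the median was 0.32, while 0.984% of all rows were higher and 0.334% lower. The median over all rows was 0.01 in both lines. The exceptions to the split between lines were SLC38A2, with ratios of 1.43 in HCT116 and 1.49 in PANC1, and SLC43A1, at 1.01 in HCT116 and at least 1.17-fold higher at 96 h in PANC1.

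The same contrast within the drugs kept this split for the 3 genes that rose with ICG-001 throughout. For SLC7A5 the log2 ratio of 96 h to 12 h in DMSO, ICG-001 and C646 was -0.83, -0.10 and -0.60 in HCT116, against 1.02, 0.26 and 0.20 in PANC1. For SLC3A2 it was -0.66, -0.52 and -0.65 against 0.58, 0.30 and 0.20, and for SLC7A1 -0.34, -0.12 and -0.04 against 0.68, 0.55 and 0.37. All 3 treatments lay under 0 in HCT116 and above 0 in PANC1. SLC38A2 was higher at 96 h in DMSO (0.51 and 0.58, in HCT116 and PANC1) and in C646 (0.36 and 0.32), and slightly lower in ICG-001 (-0.26 and -0.07).

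**Figure D4:**
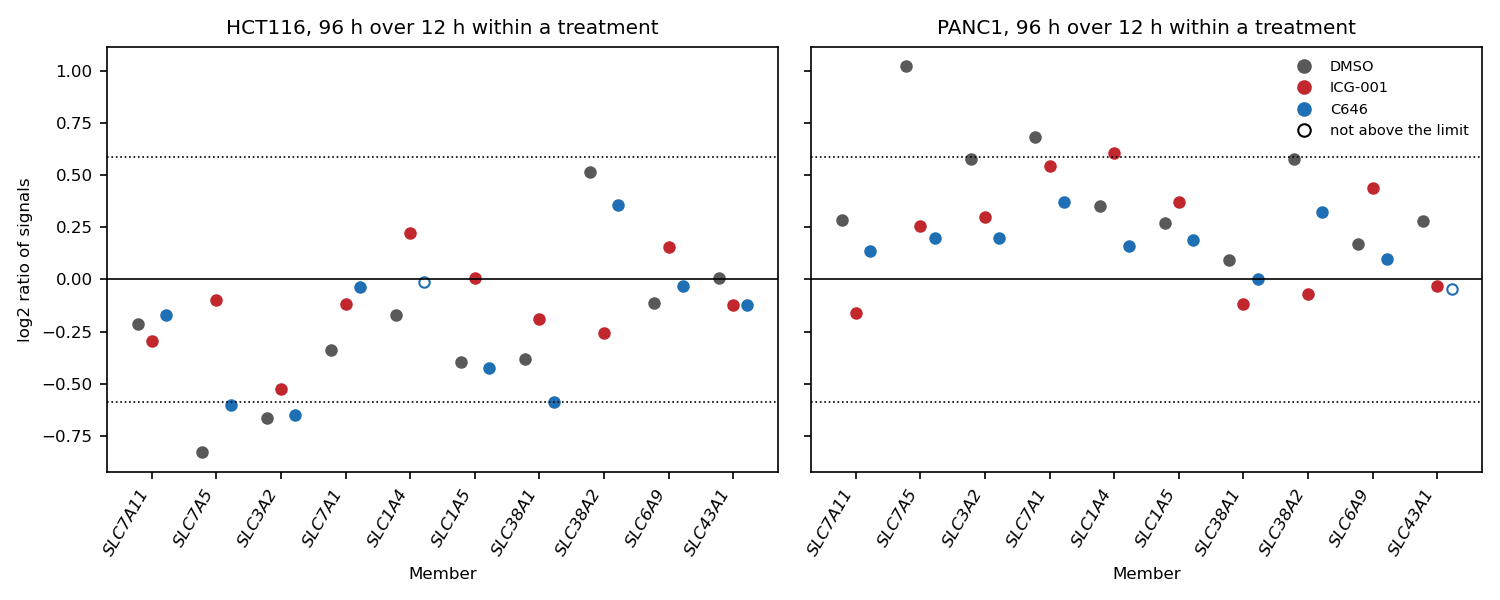
Log2 ratio of 96 h to 12 h (vertical axes) for each member within DMSO, ICG-001 and C646 in HCT116 (left) and PANC1 (right). Open circles were under the limit in both columns, and dotted lines mark 1.5-fold. SLC7A5, SLC3A2 and SLC7A1 lie under 0 in every HCT116 treatment and above 0 in every PANC1 treatment.

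Across the 12 columns, with log2 signals centred within each line, the members other than SLC38A2 and SLC43A1 varied together. Pearson's r for the 28 pairs among those 8 ran from 0.54 to 0.95 with a median of 0.84, and this set was chosen after the values were seen. SLC7A5 and its heavy chain SLC3A2 had an r of 0.92, and SLC7A11 and SLC3A2 had 0.93. Pairs with SLC38A2 had a median of 0.19 and pairs with SLC43A1 of 0.36, and SLC38A1 with SLC38A2 had 0.098. The 12 points share lines, treatments and normalization, so these values only describe the table. Among 2438 rows that were above the limit and varied at least 1.5-fold in each line, those most like SLC7A11 were MTHFD2, a mitochondrial folate enzyme (0.98), LONP1, a mitochondrial protease (0.97), and TUBE1 (0.95). Those most like SLC7A5 were TMEM79 (0.97), ANKRD11 (0.97) and C20orf94 (0.95), and those most like SLC38A2 were LGALS3, the sugar-binding galectin 3 (0.89), LOC643779 (0.73) and HINT3 (0.73).

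Of 21 other carriers of the plasma membrane, 9 to 13 were above the limit in a comparison with DMSO. With ICG-001 none of 12 rose in HCT116 at either time, and 1 of 10 at 12 h and none of 9 at 96 h rose in PANC1. Of all rows above the limit, 4.88% and 5.2% rose in HCT116 and 2.2% and 3.89% in PANC1, at 12 and 96 h. With so few carriers above the limit, counts of 0 or 1 do not set this list apart from all rows. The median log2 ratio of these carriers was -0.11 and -0.02 for HCT116 and -0.02 and -0.05 for PANC1, at 12 and 96 h. The median of all rows lay between -0.01 and 0.01 in these and the following comparisons. The changes against DMSO were a rise of SLC43A2, which like SLC43A1 carries large neutral amino acids, and a fall of SLC16A10, which carries aromatic ones. SLC43A2 rose in PANC1 with ICG-001 at 12 h (0.79 on the log2 scale, and 0.46 at 96 h) and with C646 at 12 and 96 h (1.39 and 0.79), and in HCT116 its ratios were 0.34 and 0.20 for ICG-001 and 0.56 and 0.28 for C646, under the threshold. SLC16A10 fell by 0.77 in HCT116 with ICG-001 at 96 h. SLC6A6, the taurine carrier, had log2 ratios of ICG-001 to DMSO of -0.06 and -0.16 for HCT116 and -0.19 and -0.11 for PANC1, and SLC7A6, which exchanges basic for neutral amino acids, had 0.09 at both times in HCT116 and -0.05 and -0.35 in PANC1.

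Of 12 carriers of mitochondria and lysosomes, 10 were above the limit in HCT116 and 12 in PANC1, and SLC25A22, a mitochondrial glutamate carrier, was the only one to change against DMSO. It rose in 7 of the 8 comparisons with DMSO, in which 1.92% to 5.2% of all rows rose. In HCT116 its log2 ratios were 1.03 and 0.64 after C646, at 12 and 96 h, and 0.63 and 0.32 after ICG-001, of which the last did not pass the threshold. In PANC1 they were 1.55 and 0.61 after C646 and 0.86 and 0.62 after ICG-001. SLC25A22 was also higher at 96 h than at 12 h in PANC1 DMSO, where 0.984% of all rows were. It read 464 and 827 there at 12 and 96 h, against 841 in ICG-001 and 1359 in C646 at 12 h. SFXN1, a mitochondrial serine carrier, and SLC36A1, a lysosomal amino acid carrier, stayed between -0.45 and 0.07 with either drug.

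**Figure D5:**
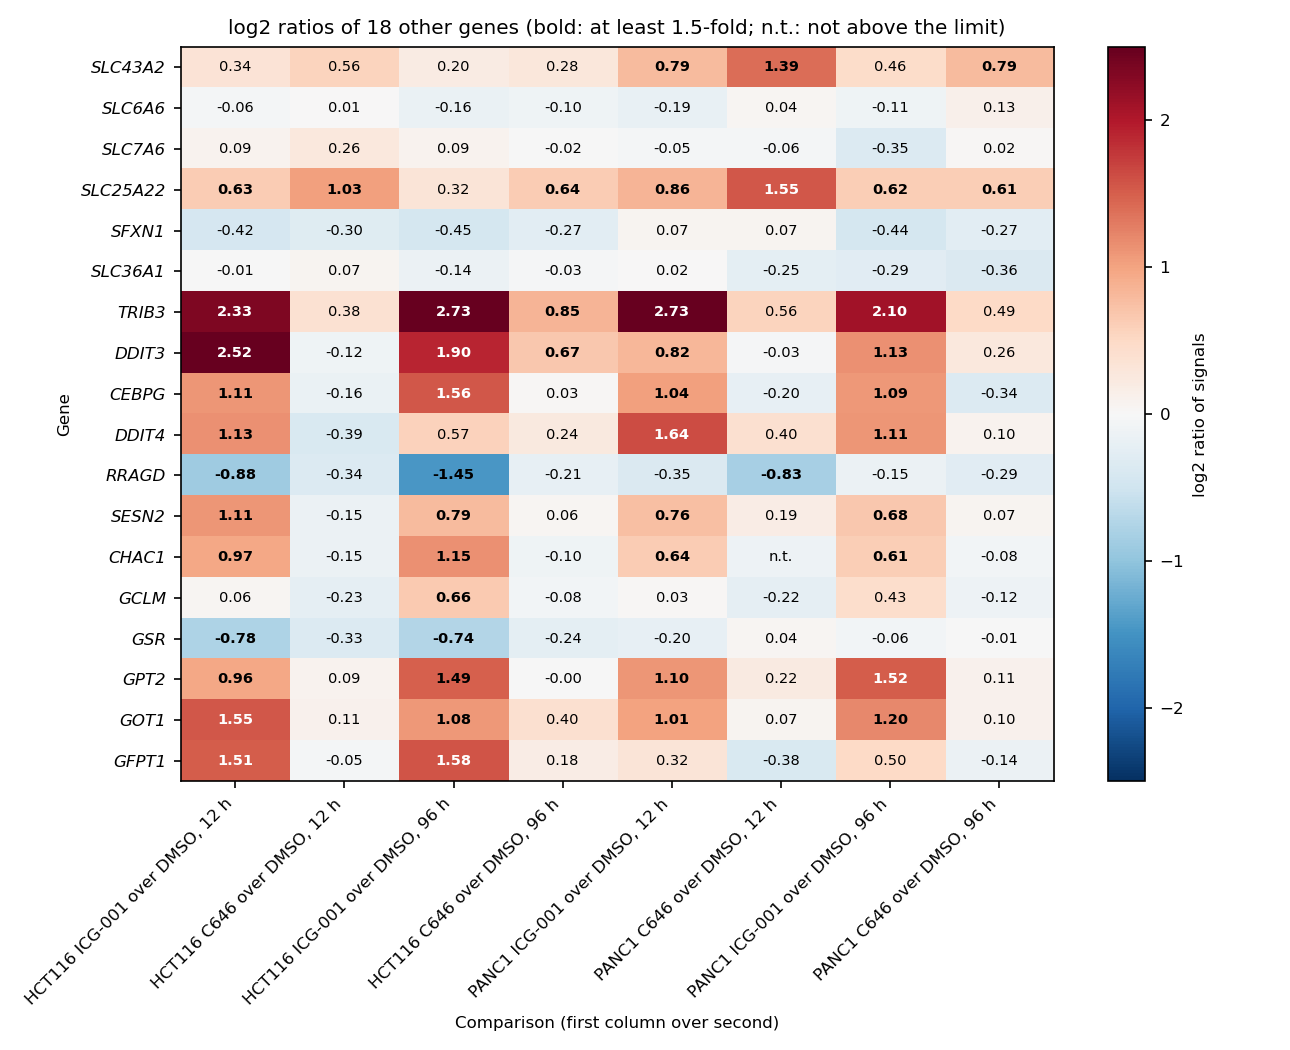
Log2 ratios of drug to DMSO for 18 other genes of amino acid transport, sensing and use (rows) in the 8 comparisons with DMSO (columns), coloured from blue (lower) to red (higher). Bold values are at least 1.5-fold, and n.t. marks a gene under the limit in both columns. TRIB3, DDIT3, CEBPG, SESN2, CHAC1, GPT2 and GOT1 are bold and positive in every ICG-001 comparison. Ratios with 1 column under the limit are drawn as measured.

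Of 15 regulators of carrier genes, 14 were above the limit, and with ICG-001 6 and 7 rose in HCT116 and 7 and 6 in PANC1, at 12 and 96 h. Of all rows, 4.88% and 5.2% rose in HCT116 and 2.2% and 3.89% in PANC1. TRIB3, a pseudokinase that is itself an ATF4 target, had log2 ratios of 2.33 and 2.73 for HCT116 and 2.73 and 2.10 for PANC1. DDIT3, the stress factor CHOP, had 2.52 and 1.90, then 0.82 and 1.13, and CEBPG, a dimer partner of ATF4, had 1.11 and 1.56, then 1.04 and 1.09. CEBPB, another partner, rose in all 4 comparisons too. ATF4 itself passed the threshold in HCT116 at 96 h (0.71) and PANC1 at 12 h (1.12), and its other values were 0.35 and 0.53. Both calls used the lower DMSO column of the line. In PANC1, ATF4 read 1416 and 2475 in DMSO at 12 and 96 h, and 3070 in ICG-001 at 12 h. In HCT116 it read 4374 and 3789 in DMSO at 12 and 96 h, and 6207 in ICG-001 at 96 h. MYC fell with ICG-001 in HCT116 at 96 h (log2 ratio of -0.98). The median of the list was 0.39 and 0.54 for HCT116 and 0.61 and 0.36 for PANC1.

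With C646, 2 and 4 regulators rose in HCT116 at 12 and 96 h, and 1 at each time in PANC1. Of all rows, 2.63% and 1.92% rose in HCT116 and 4.04% and 2.84% in PANC1. In HCT116 ATF5 and EIF2AK4, the kinase that senses uncharged tRNA, rose at 12 h (0.77 and 1.11 on the log2 scale), and both rose at 96 h (0.78 and 0.61) together with DDIT3 (0.67) and TRIB3 (0.85). In PANC1 EIF2AK4 alone rose, by 1.21 and 1.15. These rises were not particular to C646. With ICG-001, ATF5 also rose in HCT116 at both times, and EIF2AK4 in HCT116 at 96 h and in PANC1 at both times. With C646, CEBPG stood at -0.16 and 0.03 for HCT116 and -0.20 and -0.34 for PANC1. In the DMSO columns, TRIB3 followed the split between lines seen for the transporters, with a log2 ratio of 96 h to 12 h of -0.88 in HCT116 and 1.29 in PANC1. At 96 h in PANC1 DMSO, 3 of 14 regulators were higher (ATF4, CEBPB and TRIB3), beside 0.984% of all rows. In HCT116 DMSO 3 of 14 were lower (ATF5, TRIB3 and KEAP1), beside 1.58%.

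Of 32 genes listed for amino acid sensing by the mTORC1 kinase complex, 27 had a row, and 25 to 27 were above the limit. The median log2 ratio lay between -0.11 and 0.03 in the 8 comparisons with DMSO. SESN2, a leucine sensor that restrains mTORC1, rose with ICG-001 in all 4 comparisons, by 1.11 for HCT116 at 12 h and 0.68 for PANC1 at 96 h. Its DMSO column was under the limit in the other two, where it was at least 1.68-fold higher in HCT116 at 96 h and at least 1.501-fold higher in PANC1 at 12 h. DDIT4, a stress inhibitor of the complex, rose by 1.13 in HCT116 at 12 h and by 1.64 and 1.11 in PANC1, and was 0.57 in HCT116 at 96 h. In DMSO alone DDIT4 was higher at 96 h than at 12 h in both lines, beside 1.57% of all rows in HCT116 and 0.984% in PANC1. In PANC1 it read 1321 and 3197 in DMSO at 12 and 96 h, and 4112 in ICG-001 at 12 h. RRAGD, a GTPase that recruits mTORC1 to the lysosome, fell with ICG-001 in HCT116 (log2 ratios of -0.88 and -1.45) and with C646 in PANC1 at 12 h (-0.83). MLST8, a subunit of the complex, fell with C646 in PANC1 (-0.67 at each time).

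Of 10 genes of glutamine use, 8 were above the limit, and GOT1 and GPT2, aminotransferases that pass nitrogen to aspartate and alanine, rose with ICG-001 in all 4 comparisons. GOT1 had log2 ratios of 1.55 and 1.08 for HCT116 and 1.01 and 1.204 for PANC1, and GPT2 0.96 and 1.49, then 1.10 and 1.52. GFPT1, which uses glutamine for hexosamine synthesis, rose in HCT116 (1.51 and 1.58) and was at 0.32 and 0.50 in PANC1, under the threshold. With C646 none rose, beside 1.92% to 4.04% of all rows. GOT2 and PPAT fell with C646 in PANC1 at 12 h (-0.70 and -0.59), where 2.73% of all rows fell.

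Of 7 genes around glutathione, which is made from cystine brought in by SLC7A11, 5 or 6 were above the limit. CHAC1, which breaks glutathione down, rose with ICG-001 in all 4 comparisons, by 0.97 and 1.15 for HCT116 and by 0.61 for PANC1 at 96 h, and was at least 1.54-fold higher in PANC1 at 12 h, where DMSO was under the limit. The synthesis genes GCLM and GSS rose in HCT116 at 96 h (0.66 and 0.89), and GSR, the glutathione reductase, fell there at both times (-0.78 and -0.74). With C646 none of the 5 or 6 changed, beside 1.92% to 4.04% of all rows that rose and 1.2% to 2.73% that fell.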

How the data were processed

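Per the study's methods, Illumina BeadChips were read in GenomeStudio. What the authors deposited is 1 linear intensity per gene name and column, quantile normalized with the background left in and averaged over replicate arrays, of which there were 2, or 3 for PANC1 ICG-001 12 h, as the sample titles state. Values of single arrays were not used here. Replicate spread and tests are therefore missing, and the number of arrays limits the precision. Sorted log2 values differed by 0.0037 to 0.0093 on average between columns of a line and by 0.063 to 0.066 between lines. No column belonged to another series.

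Ratios are differences of log2 signals. The detection limit was placed 2.33 SD above the mode of each column's log2 values, and that SD came from the values under the mode. A gene entered a comparison if 1 or both columns exceeded the limit, and was called at 1.5-fold. Where 1 column was under the limit, calls and medians use the measured ratio, and a fold written as "at least" is the ratio of the brighter column to the limit of the dim one. The 10 members and all gene lists were chosen with earlier results of these data known. The text names all members, from each list the 3 genes with the largest mean change with ICG-001 at 96 h over both lines, and the 3 rows most correlated with SLC7A11, SLC7A5 and SLC38A2. Other list genes were named after their values were seen, because few of a list were called. Some list genes are counted but not reported by name here.

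Alternatives were thresholds of 1.2-fold and 2-fold, dim rows kept, a limit set at 5 SD, normexp (offset 16) and renewed quantile normalization of each line, ratios centred on their median, and all 12 columns quantile normalized together. The DMSO column of the other time point was added as a control after the data were seen. Promoter windows came from RefSeq (GRCh38.p14). The work used Python 3.11.15 (numpy 2.4.6, pandas 2.3.3, scipy 1.17.1, matplotlib 3.10.9) and limma 3.58.1 under R 4.3.3.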

Additional observations from a re-analysis of the deposited data

Results flagged for a closer look

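The log2 ratio of 96 h to 12 h had opposite signs in the lines for SLC7A5, SLC3A2 and SLC7A1. It was under 0 in HCT116 and above 0 in PANC1 in all 3 treatments. Some HCT116 ratios were close to 0, such as -0.04 for SLC7A1 with C646 and -0.10 for SLC7A5 with ICG-001. The mean log2 ratio of 96 h to 12 h in HCT116 minus that in PANC1 was -1.002 for SLC7A5, -0.97 for SLC3A2 and -0.70 for SLC7A1. SLC1A5 was above DMSO in all 4 ICG-001 comparisons and below it in all 4 C646 comparisons, a mean difference of 0.88 on the log2 scale. SLC38A1 with C646 was above DMSO at both times in HCT116 and below it at both times in PANC1, with a mean difference of 0.62. With ICG-001, SLC38A2 was above DMSO at 12 h and below it at 96 h in both lines, a mean difference of 0.71 between the times, and SLC43A1 showed the same order with a difference of 0.22, close to the detection limit in PANC1. Against the DMSO column of the other time the SLC38A2 order turned, with ratios of 0.996 and 0.75 at 12 h and 1.19 and 1.07 at 96 h, in HCT116 and PANC1. None of these differences was tested, since each group had 1 column.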

How the results depend on the processing

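No paired analysis was possible because each group has 1 column and the replicate arrays behind it were averaged. For the same reason no replicate could be left out. The 47 member ratios called at 1.5-fold kept their direction and stayed at least 1.5-fold without the filter on dim rows, with the limit at 5 SD, after normexp, after centring and after quantile normalization over all columns, and none of the counts of members called moved past 1.5 times except under normexp, another fold threshold or another control. With normexp, the count of members lower went from 0 to 1 for C646 in HCT116 at 12 h, from 0 to 2 for C646 in PANC1 at 96 h and from 0 to 1 for ICG-001 in PANC1 at 96 h, and the count higher at 96 h in PANC1 DMSO from 2 to 6. Counts higher with ICG-001 rose as well, but not past 1.5 times. Of its 4 comparisons with DMSO, SLC7A11 passed in 4 instead of 1, SLC6A9 in 4 instead of 2 and SLC1A4 in 3 instead of 1.

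With a threshold of 1.2-fold, members higher with ICG-001 went from 4 to 8 at 12 h in each line. Members higher with C646 went from 0 to 2 and from 1 to 3 in HCT116 at 12 and 96 h, and from 1 to 2 and from 0 to 1 in PANC1. Those lower with C646 went from 0 to 1 in HCT116 at 96 h and in PANC1 at 12 h, and from 0 to 4 in PANC1 at 96 h, and those lower with ICG-001 at 96 h from 0 to 1 in each line. In ICG-001 over C646 in PANC1 the count higher went from 5 to 8 at each time. In DMSO over time it went from 0 to 1 higher and from 2 to 5 lower in HCT116, and from 2 to 8 higher in PANC1. With a threshold of 2-fold, the counts higher fell from 5 to 1 for ICG-001 in PANC1 at 96 h, from 1 to 0 for C646 in HCT116 at 96 h, and for ICG-001 over C646 from 6 to 3 in HCT116 at 12 h and from 5 to 0 and from 5 to 1 in PANC1 at 12 and 96 h. In DMSO over time they fell from 2 to 0 lower in HCT116 and from 2 to 1 higher in PANC1.

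Against the DMSO column of the other time point, 20 of the 21 called drug ratios kept their direction and 16 stayed at least 1.5-fold. The turned ratio was SLC7A5 with C646 in HCT116 at 96 h, with a log2 ratio of -0.023. Beside it, 4 calls fell under 1.5-fold: SLC7A5 with C646 in PANC1 at 12 h (1.19), SLC1A5 with ICG-001 in HCT116 at 96 h (1.43), and SLC7A1 and SLC7A11 with ICG-001 in PANC1 at 12 h (1.40 and 1.38). Members higher with ICG-001 at 12 h went from 4 to 7 in HCT116 and from 4 to 2 in PANC1. Those higher with C646 went from 0 to 3 and from 1 to 0 in HCT116 at 12 and 96 h and from 1 to 0 and from 0 to 2 in PANC1, and those lower from 0 to 1 at each time in HCT116 and from 0 to 2 in PANC1 at 12 h. Dim members limit what these columns can show: SLC7A11, SLC1A4, SLC6A9 and SLC43A1 were under the detection limit in 1 to 4 of 12 columns.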
